A study of Arabidopsis thaliana with 6 samples.

Results

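Anther and tapetum development was followed through 10 named Arabidopsis thaliana loci, taken by their locus names out of 28775 loci in a table of RNA-seq read counts. The loci were TPD1 (AT4G24972), EMS1 (AT5G07280), SPL/NZZ (AT4G27330), ROXY1 (AT3G02000), DYT1 (AT4G21330), TDF1 (AT3G28470), AMS (AT2G16910), MYB80 (AT5G56110), MS1 (AT5G22260) and A9 (AT5G07230). The RNA came from inflorescence apices taken 2 weeks after bolting. In 3 samples dexamethasone, a synthetic glucocorticoid, had been applied to switch on AP2m3, a form of the flower regulator APETALA2 that microRNA miR172 cannot repress, and 3 mock-treated samples served as the control. The sources used here do not give the plant line, the promoter behind AP2m3, or whether a sample pooled plants. Tissue was collected 6 to 8 h after treatment, with the flower primordia that could be seen taken off, and anther genes are read here as markers of flower tissue that stayed on. The libraries are called Dx4 to Dx6 for dexamethasone and CT1 to CT3 for mock.

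The anther is the pollen-bearing part of the stamen, and the tapetum is the innermost layer of its wall, a short-lived secretory tissue that feeds the developing microspores and makes much of the pollen wall. Cell fates are set first: SPL/NZZ starts the sporogenous lineage, and the secreted protein TPD1 acts through the receptor kinase EMS1 to specify tapetal cells. A chain of transcription factors then runs from DYT1 through TDF1, AMS and MYB80 to MS1 and switches on the enzymes of the pollen wall. The genes are described here in that order.

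The libraries held 1633571 to 2196781 counts, so 1 count was worth 0.458 to 0.626 CPM (library-scaled counts, on library sizes adjusted by the trimmed mean of M values, TMM), and a count of 0 allows up to 3 counts, or 1.38 to 1.88 CPM. The AP2 locus averaged 1099 ± 89.3 CPM with dexamethasone and 64.8 ± 11.8 CPM in mock (SD, n = 3 each; log2 fold change 4.08 ± 0.15 (SE), edgeR adjusted p = 2.8e-13). These counts do not tell AP2m3 from the plant's own AP2. The meristem markers STM, KNAT1, CLV1 and WUS were detected in every library, and CLV3, a peptide gene of the stem cells, had no count in any. The mock libraries were the more varied group, with a larger SD of log2 CPM in 10553 of 15857 tested genes. Over all genes CT3 was the mock library farthest from the other mock libraries. Its chi-square per gene was 5.18 against CT1 and 3.90 against CT2, with 2.13 between CT1 and CT2. CT3 was also the mock library nearest to each dexamethasone library, at 5.23, 5.94 and 5.85 against Dx4, Dx5 and Dx6. Against the dexamethasone libraries CT1 gave 6.67 or more and CT2 6.21 or more. Pairs of dexamethasone libraries gave 1.26 to 1.34. CT1 was the lowest library in many of the tapetal genes described here, and values without single libraries are given beside the results.

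None of the 7 loci that passed the filter on low counts passed the test of dexamethasone against mock, none had an unadjusted edgeR p under 0.05, and DESeq2 and limma-voom called none. Over all genes tested 13.9% passed the same threshold, an adjusted p under 0.05 by edgeR's quasi-likelihood test, 5.86% higher and 8.02% lower, and the share was 12.3% without CT1 and 23.6% without CT3. TPD1, EMS1, SPL/NZZ, TDF1, AMS, MS1 and A9 were tested, and DYT1, MYB80 and ROXY1 were too low in count. In these 7 loci 4 log2 fold changes were positive and 3 negative, with a median of 0.04 against 0.0035 over all genes tested. The groups overlapped in each of the 7, whereas over all genes tested 31% had groups that did not overlap. The edgeR adjusted p-values lay between 0.203 (TPD1) and 0.966 (AMS).

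**Figure D1:**
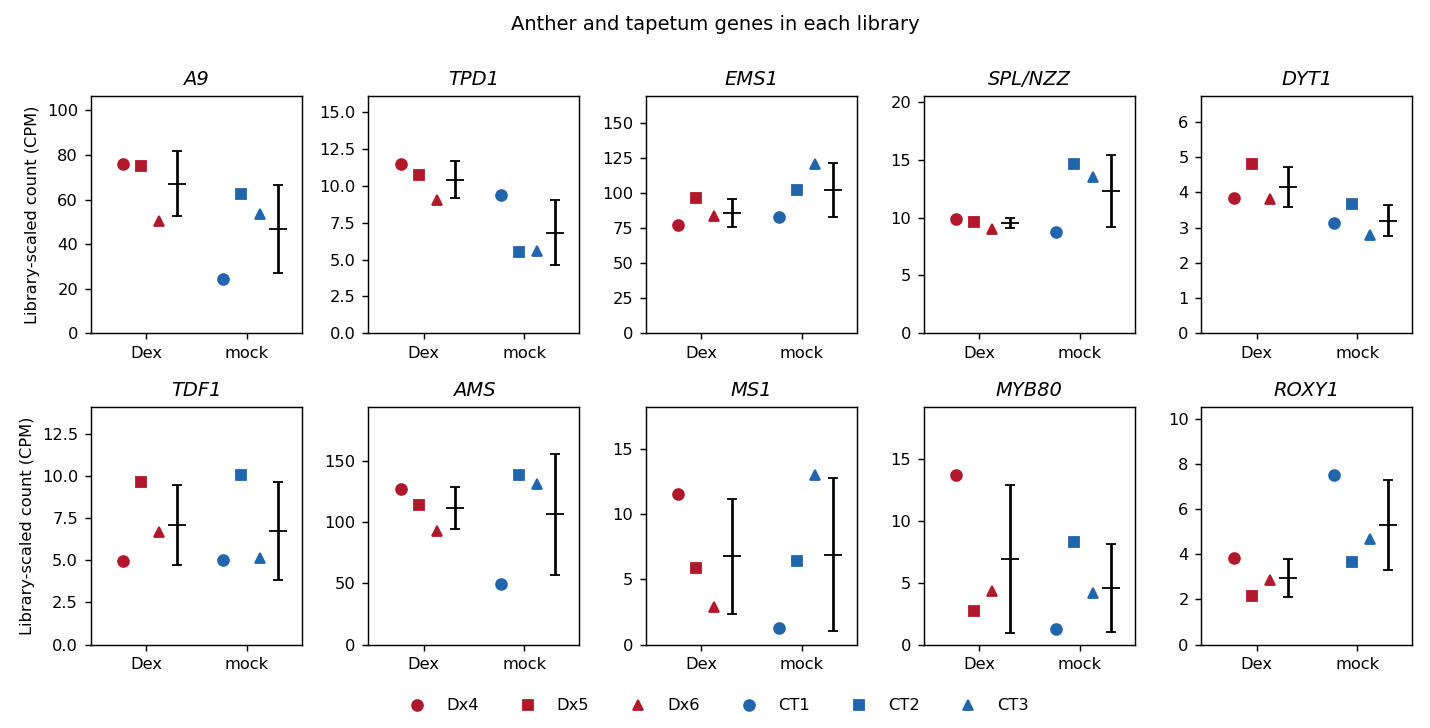
Library-scaled counts (CPM) of the 10 anther and tapetum genes in each dexamethasone (Dex, red) and mock (blue) library, with bars at the mean ± SD of 3 libraries. CT1 is the lowest of the 6 points for A9, SPL/NZZ, AMS, MS1 and MYB80 and the highest for ROXY1, and the groups overlap for every gene but DYT1.

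Per kilobase of annotated exon, the order of the 10 genes was led by A9, AMS and EMS1. A9, a gene of the tapetum that encodes a small protein of the lipid transfer protein family, stood at 124 ± 26.7 CPM per kb with dexamethasone and 86.1 ± 36.5 in mock. AMS reached 58.8 ± 9.13 CPM per kb with dexamethasone and 56.2 ± 26.1 in mock, and EMS1 21.4 ± 2.48 and 25.4 ± 4.73. A9 lay above AMS and AMS above EMS1 in each of the 6 libraries. The other 7 loci averaged 3.08 to 7.76 CPM per kb with dexamethasone and 3.14 to 9.26 in mock, below EMS1 in each library. With dexamethasone, TPD1, SPL/NZZ, MYB80, TDF1 and DYT1 lay between 6.66 and 7.76 CPM per kb, closer to each other than the larger SD of each neighbouring pair, and ROXY1 (3.69) and MS1 (3.08) lay lower. In mock SPL/NZZ was at 9.26 and MS1 at 3.14, and the other 5 loci lay between 4.74 and 6.61, each within the larger SD of its neighbours.

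The ligand and its receptor leaned in opposite directions, neither past the threshold. TPD1, the secreted ligand, had 21, 20 and 19 counts with dexamethasone in Dx4, Dx5 and Dx6 (11.5, 10.7 and 9.05 CPM), against 15, 12 and 12 counts in mock in CT1, CT2 and CT3 (9.39, 5.50 and 5.58 CPM). Mock library CT1 lay above dexamethasone library Dx6, so the groups overlapped. The log2 fold change was 0.64 ± 0.32 (SE; 95% interval -0.02 to 1.30; edgeR adjusted p = 0.203), and 0.89 without CT1.

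EMS1, a leucine-rich repeat receptor kinase, had 77.3, 96.9 and 83.8 CPM in Dx4, Dx5 and Dx6, against 83.3, 103 and 121 CPM in CT1, CT2 and CT3. The highest values were in mock, but CT1 fell within the range of the dexamethasone libraries. With 498 counts over the dexamethasone group and 618 over mock, EMS1 had the narrowest interval of the 7 tested loci. Its log2 fold change was -0.26 ± 0.15 (SE; -0.57 to 0.05; edgeR adjusted p = 0.279). The EMS1 value was -0.39 without CT1 and -0.13 without CT3.

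SPL/NZZ, a nuclear protein needed to start sporogenous cells in anthers and ovules, had 9.86, 9.63 and 9.05 CPM in Dx4, Dx5 and Dx6, against 8.77, 14.7 and 13.5 CPM in CT1, CT2 and CT3. The dexamethasone libraries were almost level, and mock held both the lowest and the highest value. The log2 fold change of SPL/NZZ was -0.40 ± 0.28 (SE; -0.98 to 0.18; edgeR adjusted p = 0.39), with -0.57 without CT1 and -0.26 without CT2.

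ROXY1 encodes a CC-type glutaredoxin that acts in petal primordia and, together with its relative ROXY2, in early anther lobes. It had 7, 4 and 6 counts in Dx4, Dx5 and Dx6 (3.84, 2.14 and 2.86 CPM), against 12, 8 and 10 in CT1, CT2 and CT3 (7.52, 3.67 and 4.65 CPM), and the CPM of Dx4 exceeded that of CT2. ROXY1 did not pass the filter. In a fit that kept all genes with at least 1 count, its log2 fold change was -0.78 ± 0.50 (SE; edgeR adjusted p = 0.377). All of its annotated exon sequence (100%) is shared with exons of other genes, mainly ACR6 (AT3G01990), on the opposite strand in the RefSeq annotation. ACR6 itself had 1 to 4 counts in each library, and the sources used here do not say how strand was treated in counting.

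DYT1, the bHLH factor at the head of the tapetal chain, was detected at a low level in each library. It had 7, 9 and 8 counts in Dx4, Dx5 and Dx6 (3.84, 4.82 and 3.81 CPM), against 5, 8 and 6 in CT1, CT2 and CT3 (3.13, 3.67 and 2.79 CPM). The CPM ranges did not overlap, although the smallest gap between the groups was under the worth of 1 count. DYT1 did not pass the filter either, and without the filter its log2 fold change was 0.37 ± 0.51 (SE; edgeR adjusted p = 0.723).

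TDF1, the R2R3 MYB factor that follows DYT1, had 9, 18 and 14 counts in Dx4, Dx5 and Dx6 (4.93, 9.63 and 6.67 CPM), against 8, 22 and 11 in CT1, CT2 and CT3 (5.01, 10.1 and 5.12 CPM). Each group spanned about the same range. For TDF1 the log2 fold change was 0.04 ± 0.37 (SE; -0.74 to 0.82; edgeR adjusted p = 0.965). Its sign turned without Dx5 (-0.23), without CT1 (-0.11) and without CT3 (-0.15).

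AMS, the bHLH factor that activates many pollen wall genes, was the most counted of the 10 loci. It had 232, 213 and 195 counts in Dx4, Dx5 and Dx6 (127, 114 and 92.9 CPM), against 79, 302 and 282 in CT1, CT2 and CT3 (49.5, 138 and 131 CPM). The mock group held both extremes, with CT1 far below all other libraries and CT2 and CT3 above all dexamethasone libraries. The SD of log2 CPM was 0.23 with dexamethasone and 0.82 in mock. Among 4545 tested genes averaging 50 to 200 CPM, the median mock SD was 0.18, and 9 genes, AMS included, had a mock SD at least as large as AMS.

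The log2 fold change of AMS was 0.04 ± 0.39 (SE; -0.93 to 1.01; edgeR adjusted p = 0.966). Its sign depended on single libraries: it was -0.28 without CT1 (edgeR adjusted p = 0.21), -0.07 without Dx4 and 0.27 without CT2. Of the AMS exon sequence 8.53% is shared with exons of other genes, mainly AT2G06795. That gene is annotated on the opposite strand and has no row of its own in the table.

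MYB80, an R2R3 MYB factor of tapetal and pollen development, had 25, 5 and 9 counts in Dx4, Dx5 and Dx6 (13.7, 2.68 and 4.29 CPM), against 2, 18 and 9 in CT1, CT2 and CT3 (1.25, 8.25 and 4.19 CPM). Its lowest and highest libraries differed 10.9-fold, and the high ones were in different groups. MYB80 did not pass the filter. Without it the log2 fold change was 0.49 ± 0.41 (SE; edgeR adjusted p = 0.543).

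MS1, a PHD-finger regulator that acts late in the tapetum, varied nearly as widely. It had 21, 11 and 6 counts in Dx4, Dx5 and Dx6 (11.5, 5.89 and 2.86 CPM), against 2, 14 and 28 in CT1, CT2 and CT3 (1.25, 6.42 and 13.0 CPM). Both ends of this 10.4-fold range were in mock. For MS1 the log2 fold change was -0.14 ± 0.63 (SE; -1.54 to 1.25; edgeR adjusted p = 0.923), and it was -0.75 without Dx4, -0.56 without CT1 and 0.65 without CT3.

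A9, the tapetal product gene among the 10, had 139, 140 and 106 counts in Dx4, Dx5 and Dx6 (76.2, 74.9 and 50.5 CPM), against 39, 136 and 115 in CT1, CT2 and CT3 (24.4, 62.3 and 53.5 CPM). Dx4 and Dx5 were the highest, CT1 was the lowest, and Dx6 fell below CT2 and CT3. The log2 fold change was 0.48 ± 0.30 (SE; -0.19 to 1.15; edgeR adjusted p = 0.353). It passed the threshold in 1 of 12 alternatives, the fit without a filter on low counts (log2 fold change 0.49 ± 0.16, edgeR adjusted p = 0.0239), and was 0.20 without CT1.

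**Figure D2:**
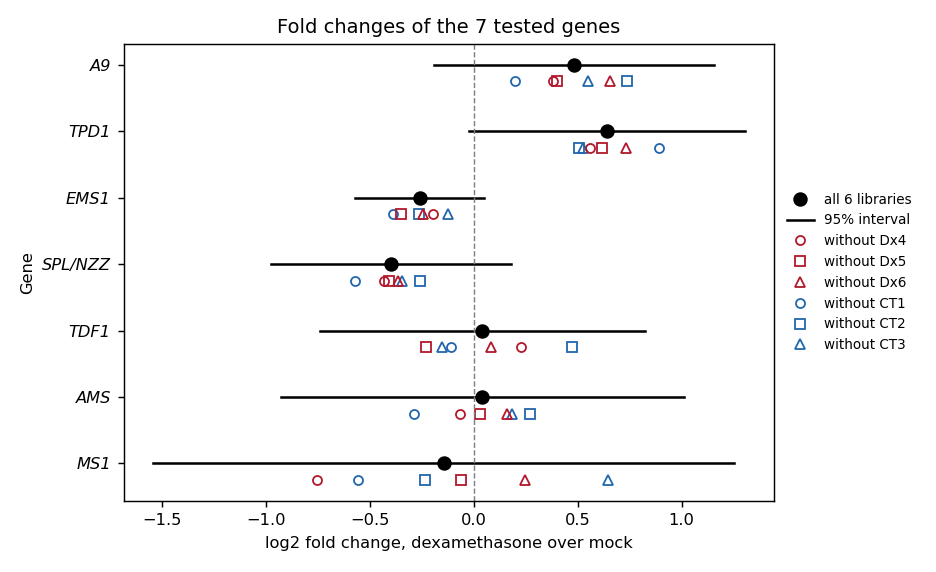
Log2 fold changes, dexamethasone over mock, of the 7 tested genes, with filled points for all 6 libraries, lines for the 95% interval, and open symbols below for the value without each library. Each interval includes 0, and the open symbols of TDF1, AMS and MS1 lie on both sides of 0.

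Several of these genes had their lowest value in the same library. CT1 was the lowest of the 6 libraries for SPL/NZZ, AMS, MS1 and A9, 4 of the 7 tested loci, compared with 23.1% of all genes tested. The 6 libraries differ in depth and in treatment, and correlations over them are given as a description only. Log2 CPM of AMS correlated with that of A9 (Pearson r = 0.90) and MS1 (r = 0.89). TPD1 ran against SPL/NZZ (r = -0.89) and EMS1 (r = -0.81). TDF1 followed none of the others closely, with r between -0.20 and 0.44. The genes most like AMS were the pollen wall transporter gene ABCG26 (r = 0.99), AT1G04880 (r = 0.99) and AT3G02370 (r = 0.99), but 181 of 15856 genes compared had r over 0.9 with it.

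Most genes of the tapetum's products were detected, and most of those tested were also lowest in CT1. Of 21 genes for pollen wall enzymes, transporters and secreted tapetal proteins, 15 passed the filter and none was called in either direction. GRP17, EXL4, UNDEAD, LTP12, EXL6 and CEP1 had too few counts, with 69, 55, 51, 20, 13 and 1 over the 6 libraries. The log2 fold changes of the 15 tested genes had a median of 0.0030 and ran from -0.54 to 0.37. A6, a tapetal glucanase-like protein, had 255, 177 and 145 CPM in Dx4, Dx5 and Dx6, against 85.2, 218 and 209 CPM in CT1, CT2 and CT3 (log2 fold change 0.15 ± 0.43 (SE), edgeR adjusted p = 0.873). ACOS5, a fatty acyl-CoA synthetase that starts sporopollenin precursors, had 168, 113 and 83.8 CPM in Dx4, Dx5 and Dx6, against 59.5, 158 and 166 CPM in CT1, CT2 and CT3 (log2 fold change -0.09 ± 0.49 (SE), edgeR adjusted p = 0.938). In both genes Dx4, CT2 and CT3 were high and CT1 was the lowest, and without CT1 the log2 fold changes were -0.16 for A6 and -0.42 for ACOS5.

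CT1 was the lowest library for 12 of these 15 genes. The highest was Dx4 for 9 of them and CT3 for 3, whereas among the 7 tested anther and tapetum loci it was CT2 or CT3 for 5 and Dx4 for 2. ABCG26, the gene closest to AMS in pattern, had 105, 81 and 64 counts in Dx4, Dx5 and Dx6, against 7, 119 and 120 in CT1, CT2 and CT3 (log2 fold change 0.11 ± 0.76 (SE), edgeR adjusted p = 0.953, and -0.35 without CT1). QRT3, a pectin-degrading enzyme that frees pollen from its tetrads, had 79, 55 and 24 counts in Dx4, Dx5 and Dx6, against 2, 83 and 62 in CT1, CT2 and CT3. QRT3, and the other genes of this list named from here on, were chosen after their values were seen. The lowest library in the dexamethasone group was Dx6 for each of the 15 tested genes, among them MS2, the fatty acid reductase of the pollen wall, with 82.2, 83.5 and 13.8 CPM in Dx4, Dx5 and Dx6, against 16.3, 45.4 and 109 CPM in CT1, CT2 and CT3.

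The direction of the product list turned with single libraries of either group. Without CT1, 15 of 16 tested genes had a negative log2 fold change and the median was -0.31. Without Dx4, 12 of 15 were negative and the median was -0.25. Without CT3, 12 of 15 were positive with a median of 0.29, and without Dx6, 13 of 15 with a median of 0.32. None passed the threshold in any of these fits. The summed level of the 21 genes was 1268, 941 and 604 CPM in Dx4, Dx5 and Dx6, against 406, 1074 and 1258 CPM in CT1, CT2 and CT3, a 3.12-fold range. In these bulk samples, fewer tapetal cells and less RNA per tapetal cell cannot be told apart.

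**Figure D3:**
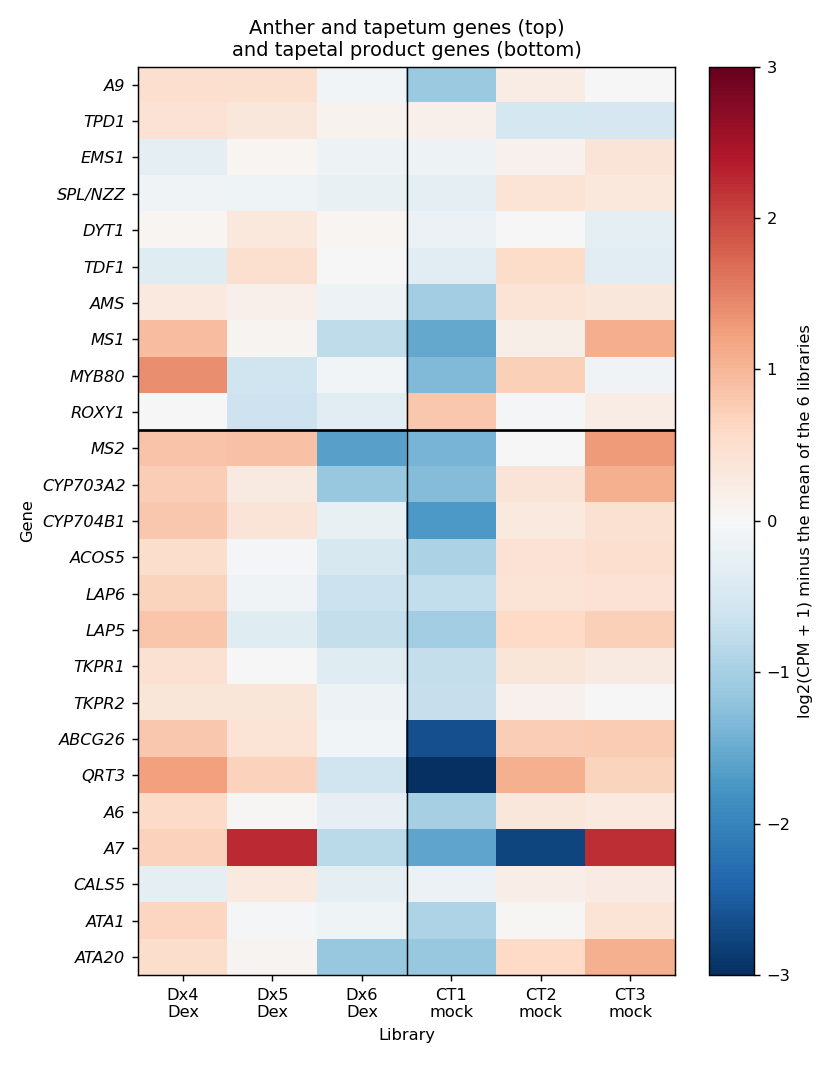
Log2(CPM + 1) of each gene minus its mean over the 6 libraries, for the 10 anther and tapetum genes (above the line) and the 15 tested tapetal product genes (below), with the dexamethasone libraries on the left and mock on the right. The CT1 column is blue in most product genes, and 12 of the 15 have their lowest value there.

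The summed level of a list of receptors, kinases and early factors spanned a narrower range than that of the products. Of 15 receptors, kinases and early specification factors, 13 passed the filter and none was called, with a median log2 fold change of -0.01. ER (ERECTA), a receptor kinase of organ growth and anther lobes, averaged 627 ± 24.9 CPM with dexamethasone and 606 ± 68.2 CPM in mock (log2 fold change 0.05 ± 0.12 (SE), edgeR adjusted p = 0.845). BAM1, a CLV1-like receptor kinase of anther cell layers, averaged 289.6 ± 12.0 CPM with dexamethasone and 233 ± 55.4 CPM in mock (log2 fold change 0.31 ± 0.14 (SE), edgeR adjusted p = 0.17). BAM1 passed the threshold without CT3 (log2 fold change 0.52, edgeR adjusted p = 4.9e-05). The summed level of the list spanned 1.22-fold, from 1522 to 1570 CPM with dexamethasone and from 1330 to 1620 CPM in mock, and ER and BAM1 made up the larger part of it. Single factors of low count varied more, with JAG, a growth factor of floral organs, spanning 2.34-fold over the 6 libraries. ROXY2, the partner of ROXY1, had 4 to 15 counts with dexamethasone and 9 in each mock library.

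The partners of the tapetal factors were also present without a call. Of 7 genes 5 passed the filter and 3 of these had a positive log2 fold change. bHLH010, which belongs to a trio of bHLH proteins that pair with DYT1, averaged 45.1 ± 1.64 CPM with dexamethasone and 41.6 ± 9.70 CPM in mock (log2 fold change 0.10 ± 0.17 (SE), edgeR adjusted p = 0.765). MYB33, a microRNA-regulated MYB gene of anther development, averaged 36.7 ± 4.05 CPM with dexamethasone and 42.3 ± 1.46 CPM in mock (log2 fold change -0.20 ± 0.15 (SE), edgeR adjusted p = 0.433). TEK, a nuclear protein for the inner pollen wall, had no count in any library. Of its exon sequence 80.1% is shared with exons of other genes, mainly one on the opposite strand.

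Meiosis genes were detected too. Of 8 genes 4 passed the filter, and all of these 4 had a positive log2 fold change and none was called. Without Dx4, 3 were positive and 1 was negative, and without any other single library all 4 were positive. DMC1, the meiotic recombinase, had 26.3, 27.3 and 23.3 CPM in Dx4, Dx5 and Dx6, against 18.8, 19.3 and 22.8 CPM in CT1, CT2 and CT3 (log2 fold change 0.33 ± 0.19 (SE), edgeR adjusted p = 0.285). SDS, a meiotic cyclin, had 11.5, 11.8 and 13.8 CPM in Dx4, Dx5 and Dx6, against 9.39, 7.33 and 5.12 CPM in CT1, CT2 and CT3 (log2 fold change 0.79 ± 0.30 (SE), edgeR adjusted p = 0.0855). The groups of DMC1 and of SDS did not overlap, with every dexamethasone library above every mock library, as in 15.1% of all genes tested. In the lists of tapetal products, receptors and early factors, tapetal partners, meiosis and pollen, which had no call, the unadjusted edgeR p was under 0.05 for BAM1 and SDS alone, and DESeq2 and limma-voom called none of their genes.

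Genes of late stamens and of pollen were at or near 0 apart from a few. MYB21 and MYB24, MYB factors of filament growth and late stamens, had no count in any library, where 17.1% and 40.7% of their exon sequence overlaps other genes. DUO1, a regulator of the male germ line, also had none, HTR10, a sperm cell histone gene, had 1 count over all libraries, and CEP1, a protease of tapetal breakdown, had 1. MYB26, which drives wall thickening before the anther opens, had 10, 4 and 5 counts in Dx4, Dx5 and Dx6, against 3, 10 and 9 in CT1, CT2 and CT3. VGD1 and VGDH1, pectin methylesterases of pollen tubes, averaged 19.5 ± 5.52 and 9.87 ± 2.88 CPM with dexamethasone and 16.7 ± 4.53 and 9.57 ± 4.19 CPM in mock, with edgeR adjusted p-values of 0.637 and 0.879.

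OPR3 is a jasmonate synthesis enzyme whose loss blocks anther opening but which also works in wounded leaves. Of the 7 genes of the late stamen list only OPR3 passed the filter, and it was called higher with dexamethasone. Over all genes tested 5.86% were called higher. OPR3 averaged 138 ± 8.55 CPM with dexamethasone and 94.3 ± 10.6 CPM in mock (log2 fold change 0.55 ± 0.13 (SE), edgeR adjusted p = 0.0069). Each dexamethasone library lay above each mock library, as in 15.1% of all genes tested. The OPR3 call was lost without Dx5 (log2 fold change 0.50, edgeR adjusted p = 0.0642) and without CT2 (log2 fold change 0.50, edgeR adjusted p = 0.0565).

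Among the genes that give stamens their identity 1 of 4 tested was called, and among those of young flowers 2 of 3. All of these calls were lower with dexamethasone. Over all genes tested 13.9% were called in either direction and 8.02% were called lower. AP3 and PI, the MADS-box genes of petals and stamens, averaged 192 ± 6.33 and 182 ± 9.21 CPM with dexamethasone and 154 ± 11.4 and 178 ± 18.6 CPM in mock. AP3 stood at 0.32 ± 0.12 on the log2 fold change scale (SE; edgeR adjusted p = 0.0911), which passed the threshold without CT3 (0.30, edgeR adjusted p = 0.0269), and PI at 0.04 ± 0.13 (SE; edgeR adjusted p = 0.895). SEP3 fell by 0.97 on the log2 scale (SE 0.14, edgeR adjusted p = 0.00012), and AP1 and LFY, which mark young floral meristems, fell by 0.92 and 1.07 (SE 0.14 and 0.24, edgeR adjusted p = 0.00014 and 0.0051). The groups of each of these 3 did not overlap, with mock above, as in 15.9% of all genes tested. The groups of AP3 did not overlap either, with dexamethasone above, nor did those of AG, the MADS-box gene of stamens and carpels, with mock above. AG averaged 69.0 ± 2.48 CPM with dexamethasone and 76.5 ± 6.53 CPM in mock (log2 fold change -0.15 ± 0.13 (SE), edgeR adjusted p = 0.52). The summed level of AP1, LFY, CAL and UFO was 144 to 177 CPM with dexamethasone and 257 to 305 CPM in mock, without overlap. The 10 anther and tapetum genes summed to 266 to 340 CPM with dexamethasone and 194 to 356 CPM in mock, the larger part from AMS, EMS1 and A9. In the sum of the 4 young flower genes the larger part was AP1, at 117 ± 16.9 CPM with dexamethasone and 222 ± 28.2 CPM in mock. CAL, a close relative of AP1, averaged 18.4 ± 1.30 CPM with dexamethasone and 19.6 ± 3.37 CPM in mock (log2 fold change -0.08 ± 0.21 (SE), edgeR adjusted p = 0.865, and 0.04 without CT1). Among the meristem markers 1 of 3 tested was called, CLV1, which rose by 0.72 on the log2 scale (SE 0.14, edgeR adjusted p = 0.0018). Over all genes tested 5.86% were called higher. KNAT1 stood at 0.30 ± 0.15 on that scale (SE; edgeR adjusted p = 0.2), or 0.48 (edgeR adjusted p = 0.0209) without CT1. STM stood at 0.15 ± 0.14 (SE; edgeR adjusted p = 0.524). WUS did not pass the filter, and without the filter it stood at -0.13 ± 0.46 (SE; edgeR adjusted p = 0.916). Whether the amount of flower tissue in a library moved any of these values was not tested.

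**Figure D4:**
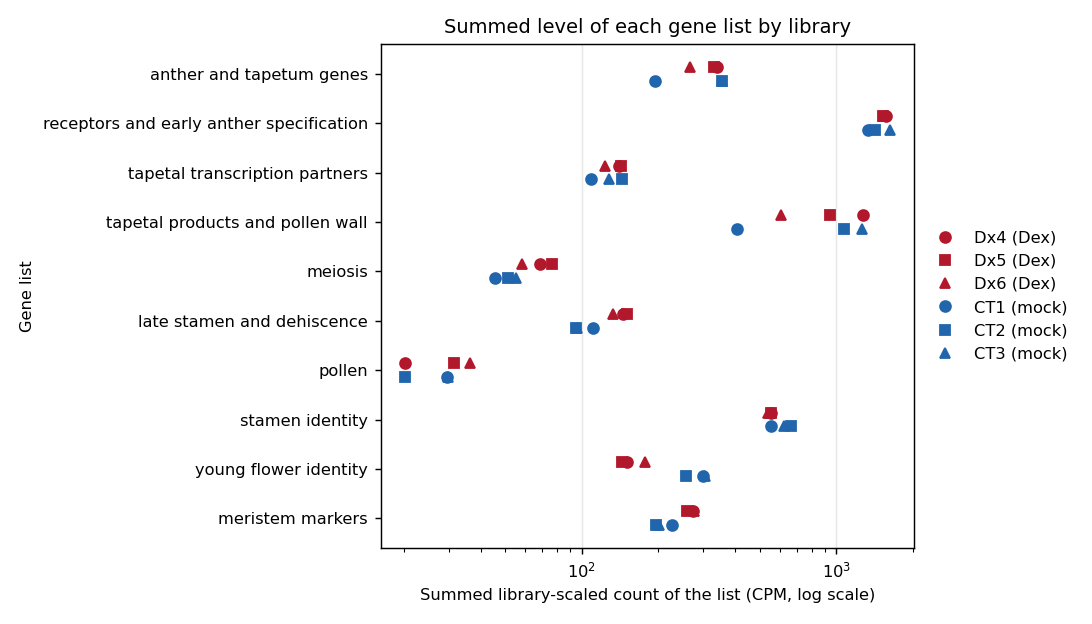
Summed CPM (log scale) of each gene list in the 3 dexamethasone (Dex, red) and 3 mock (blue) libraries. The 21 tapetal product genes span 406 to 1268 CPM with mock library CT1 at the low end, whereas the 15 receptors and early genes span 1330 to 1620 CPM and the young flower genes separate the groups.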

How the data were processed

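The authors deposited raw, unnormalized read counts for each locus, made with HTSeq going by the table's name. The submitters' processing notes list TopHat, Bowtie, RSEM and Cufflinks with no version or role. Build, annotation and strand setting do not appear in the sources used here, so no coordinates or sequences are printed. The kit was stranded and poly(A)-selecting, per the labels' protocols. The 3 blank lines of the table were left out.

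CT columns were taken as mock and Dx columns as dexamethasone. Column numbers match no dexamethasone title, so columns were tied to groups only. Nothing says whether samples came from separate plants, and the p-values cover sample-to-sample spread, possibly technical, and no more. No pair of libraries agreed within sampling noise (chi-square per gene 1.26 or more), so all 6 were kept.

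The test was that of edgeR 4.0.16 under R 4.3.3 (filterByExpr by group, minimum count 10, TMM, robust quasi-likelihood test, two-sided), adjusted by Benjamini-Hochberg over 15857 genes at a threshold of 0.05. SE is the log2 fold change over the root of F. Intervals use the test's degrees of freedom. Values per kilobase use merged RefSeq exons of TAIR10.1, in which 28009 loci matched. Shared exon sequence is the percentage of 50-base words also found in exons of other genes. Correlations and SDs on the log2 scale use a prior count of 2. The procedure was tested on simulated data in which each gene varied to the same degree in both groups. The simulation thus did not include the larger spread of mock. Alternatives were DESeq2 1.42.0 (size factors; Wald test), scaling by total counts, limma-voom (3.58.1), no filter, a minimum of 5 CPM in at least 3 libraries, and leaving out each library.

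The 10 loci and the gene lists were chosen with earlier results of these data known. Genes named were the 10 loci, AP2, called genes and the 2 of highest mean CPM in each other list, and the 3 genes most like the most counted locus. Further genes named lie outside this rule and were chosen after their values were seen. Floors cover counting error only.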

Additional observations from a re-analysis of the deposited data

How the results depend on the processing

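The log2 fold changes of EMS1, SPL/NZZ, TPD1 and A9 kept their sign under all 12 alternatives, in the ranges -0.39 to -0.13, -0.57 to -0.26, 0.51 to 0.89 and 0.20 to 0.74. The only call among the 10 loci was A9 without a filter (0.49, edgeR adjusted p = 0.0239; 0.0239 to 0.597 over its alternatives), which made the number of loci called 1. In that fit 12.1% of all 22400 genes tested were called. Why A9 was called in that fit alone was not tested. Leaving out 1 library at a time gave -0.28 to 0.27 for AMS, -0.23 to 0.47 for TDF1 and -0.75 to 0.65 for MS1, and limma-voom gave 0.049 for MS1. Signs also turned when libraries were left out for A6 (-0.16 to 0.37), ABCG26 (-0.35 to 0.42), ACOS5 (-0.42 to 0.12), bHLH010 (-0.046 to 0.28), ER (-0.044 to 0.11), PI (-0.034 to 0.12) and VGDH1 (-0.14 to 0.47), none of them called.

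Leaving out 1 library at a time, 441 to 1816 genes were higher and 668 to 1974 lower over all genes tested, against 929 and 1272 with all 6. The Wald test of DESeq2 called 549 and 815. Calls ran from 0 to 1 in the late stamen list, 1 to 2 among meristem markers and stamen identity genes, and 0 to 1 among receptors. No paired analysis was possible because the column numbers cannot be tied to the numbered dexamethasone samples. Counts limit DYT1, MYB80, ROXY1, TDF1, MS1 and TPD1, where a few reads move a value.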

Other observations

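Several genes of the pollen coat, the last product of the tapetum, had most of their counts in mock library CT3. GRP17, an oleosin-like protein of the pollen coat, had 1, 4 and 2 counts in Dx4, Dx5 and Dx6, against 3, 4 and 55 in CT1, CT2 and CT3. The extracellular lipase gene EXL4 had 0, 4 and 0 counts in Dx4, Dx5 and Dx6, against 0, 0 and 51 in CT1, CT2 and CT3. A7, an anther protein of the lipid transfer type, had 18, 57 and 6 counts in Dx4, Dx5 and Dx6, against 2, 0 and 65 in CT1, CT2 and CT3, so that Dx5 was high as well.

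Further genes listed with the pollen coat were looked up after those values were seen. GRP19 had 1, 6 and 1 counts in Dx4, Dx5 and Dx6, against 0, 1 and 61 in CT1, CT2 and CT3. BGLU20, a beta-glucosidase gene, had 0, 13 and 1 counts in Dx4, Dx5 and Dx6, against 0, 1 and 47 in CT1, CT2 and CT3. GRP14 and GRP16 had 11 and 5 counts in CT3 and none in any other library, and GRP20 and GRP18 had 17 and 8 in CT3 and at most 2 elsewhere. EXL5 was low throughout, with at most 7 counts in a library, and EXL6 had 0, 4 and 1 counts in Dx4, Dx5 and Dx6, against 0, 0 and 8 in CT1, CT2 and CT3. EXL1 and EXL3 were present in each library, at 13.7 to 16.2 and 23.0 to 27.9 CPM with dexamethasone and 21.9 to 42.3 and 25.2 to 48.4 CPM in mock, and EXL2 had 3 to 8 counts. Of these further genes only EXL1 and EXL3 passed the filter on low counts. EXL1 fell by 1.02 on the log2 scale (SE 0.24, edgeR adjusted p = 0.0062), and by 0.69 without CT3 (edgeR adjusted p = 0.0229), and its groups did not overlap. Over all genes tested 8.02% were called lower, and 15.9% had groups that did not overlap with mock above. The log2 fold change of EXL3 was -0.55 ± 0.21 (SE; edgeR adjusted p = 0.0952), which passed the threshold without CT2 (-0.80, edgeR adjusted p = 0.0126) and without a filter on low counts (-0.54, edgeR adjusted p = 0.0291).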
